A study of Mus musculus with 18 samples.

Results

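The genes described here are 9 genes of DNA methylation and its removal: the methyltransferases Dnmt1, Dnmt3a and Dnmt3b, their partners Dnmt3l and Uhrf1, the dioxygenases Tet1 and Tet2, and the methyl-CpG binding domain genes Mbd2 and Mbd3. They were chosen by name, with earlier results of these data known. On the array, 7 of the 9 carried probes under their own symbol, 12 probes of the 45281 probes and 7 symbols of the 30869 symbols. Tet1 and Tet2 were on no probe under those names and were followed under the older symbols that RefSeq lists for them, Cxxc6 with 1 probe and E130014J05Rik with 2 probes. A gene with several probes was represented by the probe brightest over all arrays.

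RNA came from ESD3 (D3) cells, a mouse embryonic stem (ES) cell line of strain 129s2/SvPas, which were grown on mouse embryo fibroblast feeder cells with LIF and bFGF and then differentiated by a protocol for dopaminergic neurons. Control cells carried a viral shRNA against luciferase and HPRT knockdown cells a viral shRNA against HPRT, the purine salvage enzyme whose loss causes Lesch Nyhan disease, so both cell types were infected and selected. Each was sampled as ES cells, as spherical neural masses (SNM, floating neural precursor aggregates) and at the final neuron stage, which gave 6 conditions of 3 Illumina arrays each. The 3 arrays of a condition shared 1 pool of RNA. Every SE and p-value below therefore reflects array error alone and leaves out how cultures differ. Levels are background-corrected, quantile-normalised signals on the log2 scale, and changes are differences of these levels. They can be compared between conditions for 1 probe, not between probes.

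Between 18827 and 22202 probes were detected per array, and arrays of a condition correlated at 0.9923 to 0.9968. Hprt1, the targeted gene, was lower in knockdown cells at each stage, with mean log2 levels of 7.95 against 12.04 in ES cells, 9.44 against 11.20 at the SNM stage and 6.60 against 11.05 at the final neuron stage, so the knockdown was least deep at the SNM stage. The final stage went against its label in part. The summed signal of 8 skeletal muscle genes was 57300 to 57590 on the control neuron arrays against 126.7 to 226.7 on the knockdown neuron arrays, and that of 10 oligodendrocyte and myelin genes was 3269 to 3455 against 69160 to 74310. The 10 neuron genes summed to 12680 to 13840 in control and 7628 to 8853 in knockdown cells, with Snap25 and Nefl detected on none of these arrays and Tubb3 on none of the knockdown ones. Of fibroblast genes 7 of 8 were lower in knockdown cells at this stage, and of astrocyte and radial glia genes 5 of 8 were higher and 1 lower. Among SNM, 6 of 9 tested oligodendrocyte genes were lower in knockdown cells, while 6 of 7 muscle genes, 4 of 8 astrocyte and radial glia genes and 3 of 8 fibroblast genes were higher. Over all probes tested, 19.9% at the SNM stage and 27.4% at the final stage met the same rule for a change, given below. The muscle sum was 1042 to 1070 on control and 1996 to 2262 on knockdown SNM arrays. In such bulk RNA, fewer cells of a type and less RNA per cell cannot be told apart, and the part of cell makeup in the results at both later stages was not tested.

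Methylation of cytosine in CpG dinucleotides is copied after each round of replication by Dnmt1, which Uhrf1 brings to the hemimethylated new strand. Dnmt3a and Dnmt3b place methyl groups on unmethylated DNA, and Dnmt3l, which has no catalytic activity of its own, stimulates them in germ cells and early embryonic cells. Tet enzymes oxidise the methyl group and so start its removal, and are prominent in ES cells. Mbd2 reads methylated CpG, and Mbd3 joins the chromatin remodelling complex NuRD.

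Dnmt1 and Uhrf1 moved together across the 6 conditions, and both hold, in the 250 bases before an annotated start, the letters TTTCGCGC, a spelling of the site bound by E2F factors, which switch on genes of DNA replication. The stretch of 30 bases around each is shown. These genes were picked for display because they followed the proliferation genes below, and whether E2F factors act on them was not tested. Capitals mark the match, which in Dnmt1 lies on the opposite strand and so reads in reverse complement (RefSeq, GRCm38.p6, gene strand).
Dnmt1, chr9:20952824-20952853, minus strand: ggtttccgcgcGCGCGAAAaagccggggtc
Uhrf1, chr17:56304117-56304146, plus strand: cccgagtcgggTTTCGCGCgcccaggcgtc
The match ran from base 219 to base 212 before the Dnmt1 start and from base 185 to base 178 before the Uhrf1 start. The 4 spellings searched on both strands, TTTCGCGC, TTTCCCGC, TTTGGCGC and TTTGCCGC, were found in 1.86% of all 32851 windows and in at least 1 window of 2.16% of all symbols. Of the 8 genes read here, with 15 windows, 2 held one. The matched windows were rich in CG, with 26 in Dnmt1 and 30 in Uhrf1 against a median of 6 over all windows. The other windows of both genes held no match. How CG content bears on the share of windows with a match was not tested. Among the 13 proliferation genes with a window, 4 held one (Mcm5, Mcm6, Mcm7 and Cdk1). A match is a description of letters and not of binding.

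Dnmt3l and Tet2, whose mean levels also ran in parallel on the brighter Tet2 probe, lie behind very different sequence. The 250 bases before the first annotated start are shown for each with every CG in capitals.
Dnmt3l, chr10:78042037-78042286, plus strand: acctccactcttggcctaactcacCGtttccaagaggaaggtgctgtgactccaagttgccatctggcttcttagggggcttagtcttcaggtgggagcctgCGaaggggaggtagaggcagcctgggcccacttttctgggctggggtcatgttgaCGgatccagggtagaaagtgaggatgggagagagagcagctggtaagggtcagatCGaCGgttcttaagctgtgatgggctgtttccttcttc
Tet2, chr3:133544391-133544640, minus strand: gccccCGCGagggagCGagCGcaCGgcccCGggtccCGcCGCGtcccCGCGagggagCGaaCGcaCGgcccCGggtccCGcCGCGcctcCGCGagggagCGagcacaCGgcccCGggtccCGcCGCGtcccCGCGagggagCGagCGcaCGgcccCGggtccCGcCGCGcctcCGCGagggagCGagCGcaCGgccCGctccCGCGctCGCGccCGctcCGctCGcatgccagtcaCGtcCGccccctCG
The Dnmt3l window shown held 5 CG and the Tet2 window 51, where the median window held 6. Windows of later Dnmt3l starts held 4 and 3 CG. Which start these cells use was not tested. No methylation was measured in these samples.

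Testing needed detection (detection p under 0.05) on all 3 arrays of a compared condition, and a call needed a limma adjusted p under 0.05 together with a change of 1.5-fold or more. Dnmt3a and Mbd2 were detected on 0 of 18 arrays and could not be tested. The 3 Dnmt3a probes had raw signals between 48.02 and 75.83 and the Mbd2 probe between 46.02 and 63.84, which is background and says only that these probes gave no signal. The 5 other genes listed under their own symbol, and both Tet genes, were detected on all 18 arrays.

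**Figure D1:**
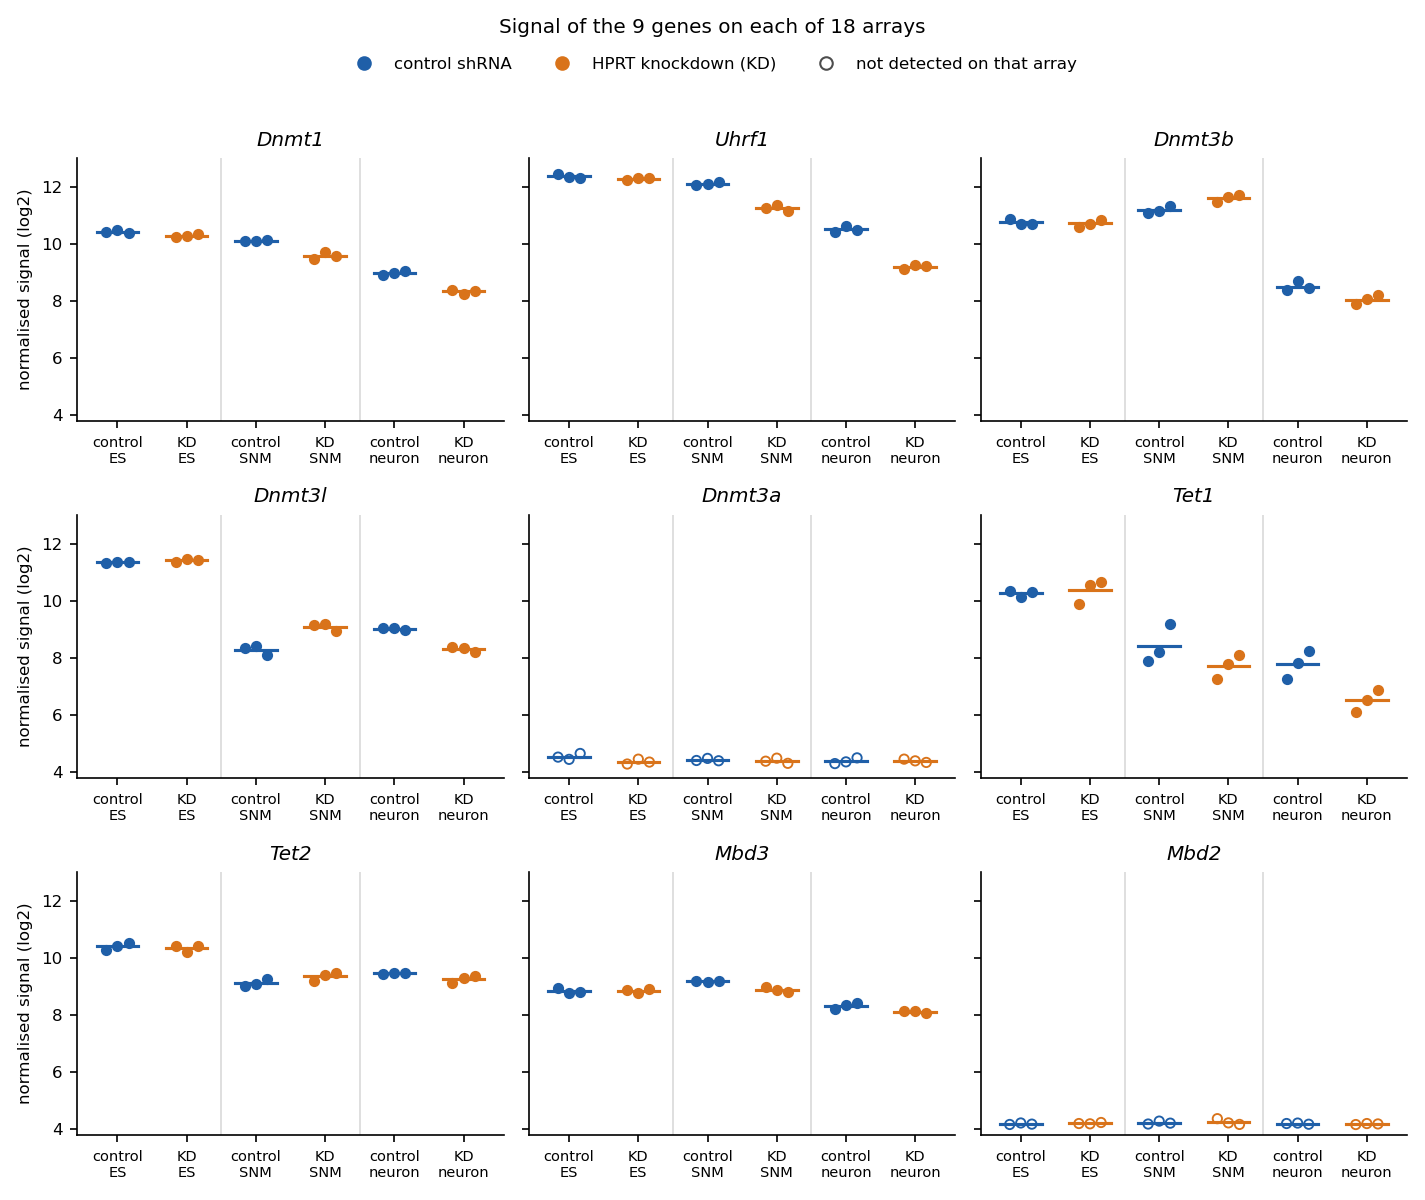
Normalised log2 signal (vertical axis) of the brightest probe of each gene on each of the 18 arrays; horizontal lines are the means of 3 arrays, and open points are arrays where the probe was not detected. Dnmt1 and Uhrf1 step down through the conditions, Dnmt3b stays high until the SNM stage, Dnmt3l and both Tet genes leave ES cells with a fall, and Dnmt3a and Mbd2 stay at background.

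Knockdown against control differed by stage. In ES cells 0 of the 5 tested genes were called, against 1.68% of all 18411 probes tested, and 0 had an unadjusted p under 0.05 or were called by the unpaired test that the study's methods name. At the SNM stage 2 of 5 were called (Dnmt3l higher, Uhrf1 lower), where the background was 19.9%. At the final neuron stage 3 of 5 were called, Dnmt1, Dnmt3l and Uhrf1, all lower, where the background was 27.4%. Of the Tet genes 0 of 2 were called at the first of these stages, 0 of 2 at the second and 1 of 2, Tet1, at the third. Over all probes an unadjusted limma p under 0.05 was common. It was found for 4761 of 18411 in ES cells, 11996 of 20765 at the SNM stage and 12984 of 20893 at the final stage. How often the arrays of all probes lay apart without overlap was not counted, so non-overlap below only describes a gene's arrays.

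Between stages the counts differed by step. From ES cells to SNM 1 of 5 was called in control cells (Dnmt3l), against 49.1% of all probes, and 4 of 5 in knockdown cells, against 57.3%. From SNM to the final neuron stage 5 of 5 were called in control cells, 4 of them lower, against 29.4%, and 5 of 5 were lower in knockdown cells, against 28.6%. The test of whether the knockdown effect itself changed called 2 of 5 between ES and SNM, against 21.3% of all probes, and 2 of 5 between SNM and the final stage, against 28.6%. With so few genes these counts are descriptions, and comparisons at the same stage share arrays.

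**Figure D2:**
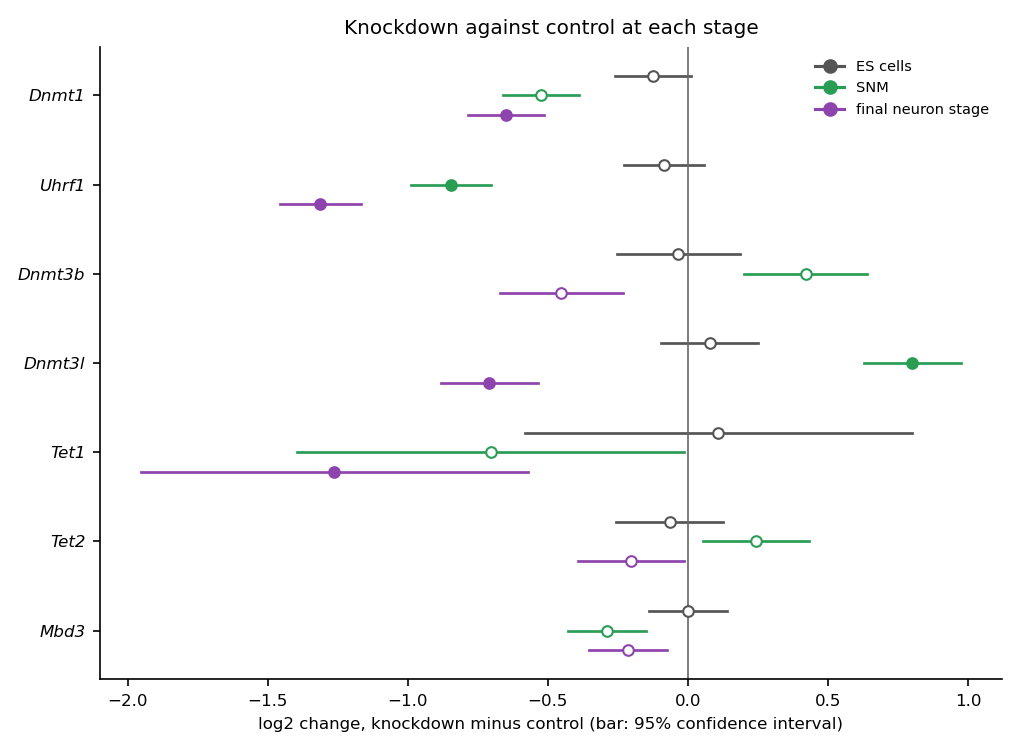
Log2 change of knockdown minus control cells (horizontal axis) for the 7 detected genes at each stage, with 95% confidence intervals from the limma fit over 3 arrays a condition; filled points were called. All ES intervals include 0, Dnmt3l changes sign from 0.80 at the SNM stage to -0.71 at the final stage, and Uhrf1 moves from -0.09 to -1.31.

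Of the maintenance pair, Uhrf1, on chromosome 17, showed the larger knockdown effect. Its log2 signals in control cells were 12.45, 12.34 and 12.31 in ES cells, 12.05, 12.07 and 12.18 as SNM and 10.42, 10.61 and 10.50 at the final stage. In knockdown cells they were 12.23, 12.31 and 12.31, then 11.25, 11.35 and 11.16, then 9.11, 9.24 and 9.23. Control and knockdown arrays overlapped in ES cells and lay apart at both later stages, with every knockdown array below every control array. The knockdown change was -0.09 ± 0.07 (SE, n = 3 arrays a condition) in ES cells, adjusted p = 0.463, -0.85 ± 0.07 at the SNM stage, adjusted p = 4.05e-08, and -1.31 ± 0.07 at the final stage, adjusted p = 7.84e-11. The effect at the SNM stage was below that in ES cells by a further -0.76 ± 0.10, adjusted p = 1.25e-05. The step from there to the final stage, -0.47 ± 0.10, adjusted p = 0.000771, was smaller than 1.5-fold and was not called.

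Uhrf1 also fell with differentiation in both cell types. From ES to SNM its change was -0.27 ± 0.07 in control cells, which is 1.205-fold and was not called, and -1.03 ± 0.07 in knockdown cells, which is 2.041-fold and was. From SNM to the final stage it changed by -1.59 in control and by -2.06 in knockdown cells. The second Uhrf1 probe was near background, with detection on 8 of 18 arrays, and was called once, at least 1.496-fold lower from ES to SNM in knockdown cells.

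Dnmt1, on chromosome 9, had 1 probe and took the same path over a smaller range. Control cells gave log2 signals of 10.40, 10.47 and 10.36 as ES cells, 10.09, 10.09 and 10.13 as SNM and 8.91, 8.99 and 9.04 at the final stage. Knockdown cells gave 10.25, 10.27 and 10.33, then 9.46, 9.70 and 9.57, then 8.39, 8.24 and 8.36. The groups did not overlap at any stage, but in ES cells the gap was slight and the change of -0.12 ± 0.06 had an adjusted p of 0.238. At the SNM stage Dnmt1 was lower by -0.52 ± 0.06, adjusted p = 4.39e-06, which is 1.439-fold and under the threshold for a call, and without array 2 of the knockdown SNM cells it was -0.59 and called. At the final stage the change was -0.65 ± 0.06, adjusted p = 2.31e-07, and it was called at 1.571-fold. On signals without background correction the final change was -0.58 with quantile normalisation and -0.54 with scaling to the 75th percentile, under 1.5-fold in both. Between SNM and the final stage Dnmt1 fell by 1.12 in control and by 1.25 in knockdown cells.

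Genes of proliferating cells moved with this pair. Of 16 S phase and mitosis genes, 0 were called in the knockdown against control comparison in ES cells, 11 were lower and 0 higher at the SNM stage with a median of -0.69, and 15 were lower and 0 higher at the final stage with a median of -1.03, where the medians of all probes were between -0.04 and 0.01. Over all probes tested 1.68%, 19.9% and 27.4% were called at these stages. In the step from SNM to the final stage the shares were 29.4% in control and 28.6% in knockdown cells. Of the proliferation genes 16 of 16 were lower in that step in both cell types. Their summed signal went from 35180 to 35880 on the control ES arrays and 33320 to 33360 on the knockdown ES arrays down to 9063 to 9517 and 4101 to 4280 at the final stage. As SNM it was 23870 to 24620 in control and 14820 to 15220 in knockdown cells. Rrm2, a subunit of ribonucleotide reductase, was lower at the SNM stage by -1.38 ± 0.09, and Mcm5, a subunit of the replicative helicase, by -1.78 ± 0.08 at the final stage. Whether the fall of Dnmt1 and Uhrf1 is part of this one was not tested.

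**Figure D3:**
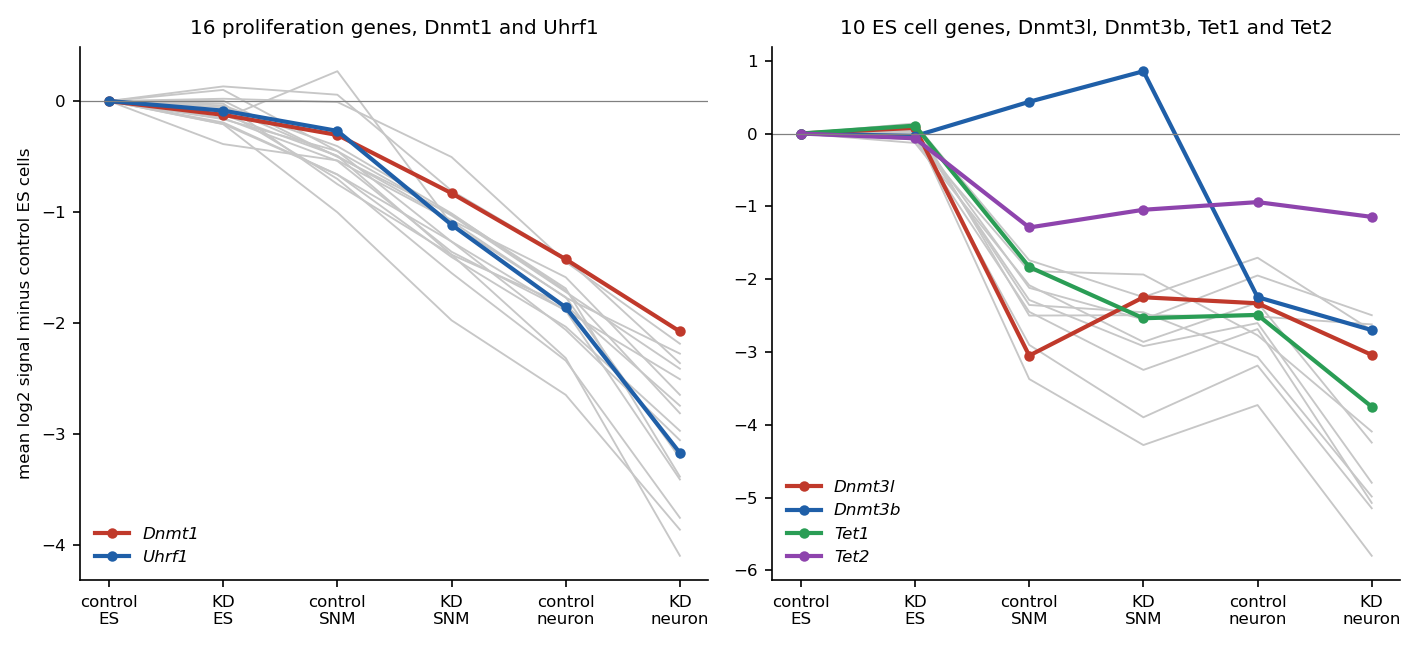
Mean log2 signal of each gene minus its mean in control ES cells (vertical axis) in the 6 conditions; grey lines are single genes of the proliferation list (left, 16 genes) and of the ES cell list (right, 10 genes), and coloured lines are the methylation genes, lines joining the means of 1 gene. Dnmt1 and Uhrf1 run within or at the upper edge of the proliferation genes, while Dnmt3b stays up at the SNM stage, where every ES cell gene is down.

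Dnmt3b, on chromosome 2, kept its ES cell level or rose at the SNM stage and then had the longest fall of the 7 detected genes from SNM to the final stage. Its log2 signals were 10.87, 10.68 and 10.70 in control ES cells and 10.60, 10.70 and 10.85 in knockdown ES cells. SNM gave 11.09, 11.14 and 11.32 in control and 11.48, 11.63 and 11.70 in knockdown cells. At the final stage they were 8.37, 8.69 and 8.44 in control and 7.89, 8.06 and 8.19 in knockdown cells. The knockdown arrays therefore lay all above the control arrays at the SNM stage and all below them at the final stage, and were mixed with them in ES cells.

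The rise of Dnmt3b from ES to SNM was 0.44 ± 0.10 in control cells, adjusted p = 0.00119 and under 1.5-fold, and 0.89 ± 0.10 in knockdown cells, adjusted p = 6.9e-07 and called at 1.853-fold. The fall from SNM to the final stage was 6.424-fold in control cells (-2.68 ± 0.10) and 11.76-fold in knockdown cells (-3.56 ± 0.10). Knockdown against control was 0.42 ± 0.10 at the SNM stage, adjusted p = 0.00284, and -0.45 ± 0.10 at the final stage, adjusted p = 0.00131, both under 1.5-fold and not called. The difference between these effects was called, at -0.87 ± 0.15 with adjusted p = 0.000123. The second Dnmt3b probe was dim and was detected on 15 of 18 arrays. It gave 0.44 ± 0.11 for knockdown against control at the SNM stage and changes of -1.18 and -1.45 from SNM to the final stage in control and knockdown cells. From ES to SNM it gave -0.19 ± 0.11 and 0.16 ± 0.11 and so did not show the rise, and for the difference of effects it gave -0.27 ± 0.16, adjusted p = 0.183.

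Dnmt3l, on chromosome 10, had its highest level in ES cells and then crossed between the cell types. ES cells gave log2 signals of 11.32, 11.37 and 11.35 in control and 11.35, 11.48 and 11.44 in knockdown cells. SNM gave 8.34, 8.43 and 8.12 in control and 9.16, 9.19 and 8.94 in knockdown cells. The final stage gave 9.04, 9.03 and 8.97 in control and 8.38, 8.34 and 8.20 in knockdown cells. The knockdown arrays were all higher at the SNM stage and all lower at the final stage, with no overlap in either.

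The fall of Dnmt3l from ES to SNM was 8.287-fold in control cells (-3.05 ± 0.08, adjusted p = 8.57e-15) and 5.019-fold in knockdown cells (-2.33 ± 0.08, adjusted p = 1.74e-13). Knockdown cells were therefore 0.80 ± 0.08 above control cells at the SNM stage, adjusted p = 6.28e-07, and the test of that difference against the ES stage gave 0.72 ± 0.12, adjusted p = 0.000124. From SNM to the final stage Dnmt3l rose by 0.72 ± 0.08 in control cells, adjusted p = 1.24e-06, and fell by 0.79 in knockdown cells, adjusted p = 4.08e-07. At that stage knockdown cells were lower by -0.71 ± 0.08, adjusted p = 1.49e-06, and the effect had turned by -1.51 ± 0.12, adjusted p = 1.95e-08. The second Dnmt3l probe, also detected on all 18 arrays, gave 0.78 ± 0.08 and -0.69 ± 0.08 for the knockdown effect at these stages and -1.47 ± 0.12 for the turn.

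**Figure D4:**
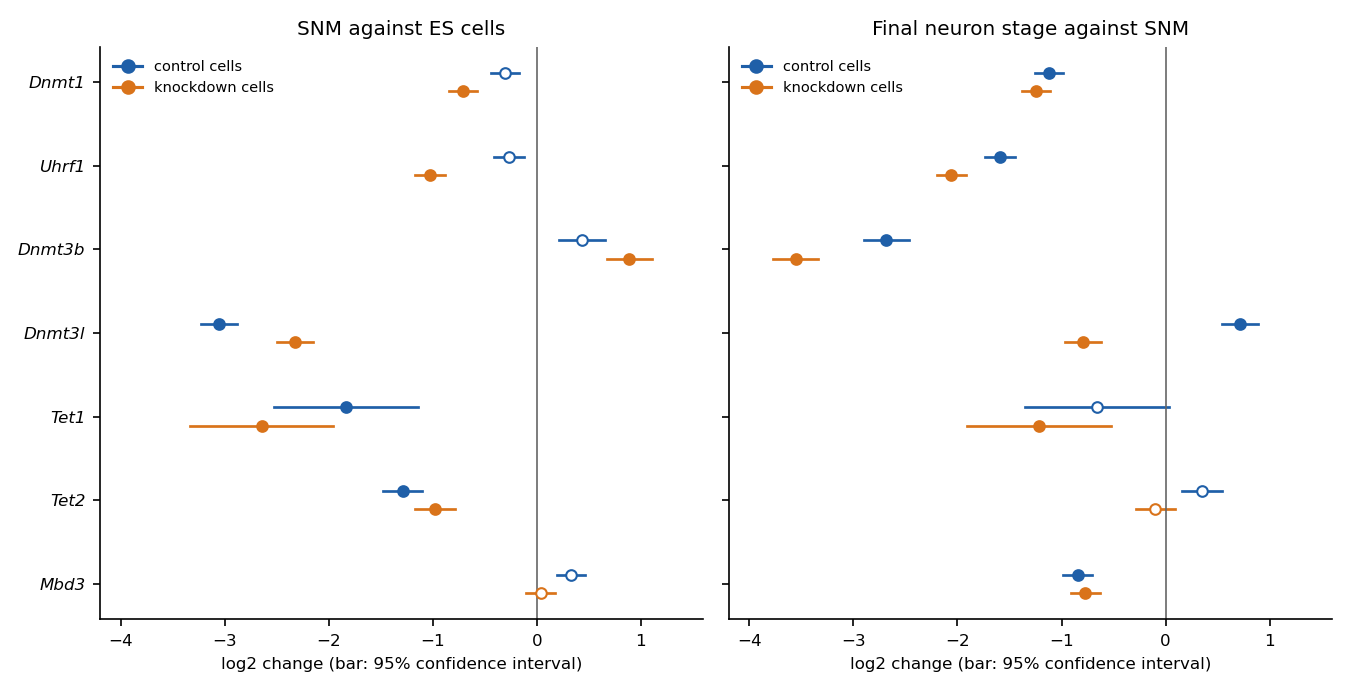
Log2 change from ES cells to SNM (left) and from SNM to the final neuron stage (right) in control and knockdown cells for the 7 detected genes, with 95% confidence intervals from the limma fit over 3 arrays a condition; filled points were called. Dnmt3l changes by -3.05 and -2.33 in the first step and goes in opposite directions in the second (0.72 and -0.79), and Dnmt3b has the longest fall of the second step in both cell types.

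The list of 10 pluripotency genes gives the ES cell background to Dnmt3l, Dnmt3b and the Tet genes. From ES to SNM 10 of 10 were lower and 0 higher in control cells, with a median of -2.32, and 10 of 10 were lower in knockdown cells, with a median of -2.68. Over all probes tested 1.68%, 19.9% and 27.4% were called in knockdown against control in ES cells, SNM and at the final stage. On the list 0 of 10 were called in ES cells. At the SNM stage 5 of 9 tested were lower and 0 higher. At the final stage 8 of 9 were lower and 0 higher with a median of -1.92. Dnmt3l at the SNM stage thus stood higher in the knockdown cells, where these genes stood lower or were not called. The summed signal of the list was 11580 to 12500 in control and 8012 to 8402 in knockdown SNM.

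Tet1, on chromosome 10 and read by the single Cxxc6 probe, was high in ES cells and lower after them. Its log2 signals in control cells were 10.34, 10.14 and 10.32 as ES cells, 7.90, 8.22 and 9.18 as SNM and 7.28, 7.81 and 8.24 at the final stage. In knockdown cells they were 9.89, 10.56 and 10.67, then 7.28, 7.80 and 8.11, then 6.11, 6.54 and 6.89. Control and knockdown arrays overlapped in ES cells and at the SNM stage and lay apart at the final stage. The probe had SDs of 0.39 to 0.67 over the 3 arrays in every condition except control ES cells (0.11). The array numbered 3 was above its condition mean in each condition, by 0.06 to 0.75, and the array numbered 1 lay on average 0.38 below it (mean deviation -0.38).

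The fall of Tet1 from ES to SNM was 3.563-fold in control cells (-1.83 ± 0.32, adjusted p = 8.81e-05) and 6.258-fold in knockdown cells (-2.65 ± 0.32, adjusted p = 1.37e-06). Knockdown against control was 0.11 ± 0.32 in ES cells, adjusted p = 0.882, and -1.26 ± 0.32 at the final stage, adjusted p = 0.0033, where the unpaired test of the methods gave an adjusted p of 0.0508. At the SNM stage it was -0.70 ± 0.32, adjusted p = 0.0808. There the deviations of arrays of equal number, over all detected probes, correlated at 0.49, 0.11 and 0.49. With the array number as a block in the limma model over all 6 conditions, the same difference had an SE of 0.18 and an adjusted p of 0.00377. Leaving out single arrays gave -0.97 to -0.33: without array 1 of the control SNM cells it was -0.97, adjusted p = 0.0289, and without array 3 of them it was -0.33 and not called. It was also called with quantile normalisation alone (-0.60, adjusted p = 0.036) and with scaling to the 75th percentile (-0.62, adjusted p = 0.0184). From SNM to the final stage Tet1 fell by 1.22 in knockdown cells, adjusted p = 0.00419, while in control cells it changed by -0.66 ± 0.32, adjusted p = 0.0914. The latter became -0.93 without array 1 of the control SNM cells, adjusted p = 0.0308, and -0.89 without array 3 of the control neuron cells, adjusted p = 0.0418. It shrank to -0.28 and was not called without array 3 of the control SNM cells.

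Tet2, on chromosome 3 and read by E130014J05Rik, fell from ES cells to SNM on both of its probes. The brighter probe gave log2 signals of 10.29, 10.41 and 10.51 in control and 10.42, 10.20 and 10.39 in knockdown ES cells. SNM gave 9.02, 9.07 and 9.24 in control and 9.20, 9.39 and 9.47 in knockdown cells, and the final stage 9.44, 9.48 and 9.46 against 9.12, 9.30 and 9.35. The groups overlapped in ES cells and at the SNM stage, and at the final stage the knockdown arrays were slightly below the control arrays. From ES to SNM the fall was 2.447-fold in control cells (-1.29 ± 0.09, adjusted p = 1.49e-09) and 1.975-fold in knockdown cells (-0.98 ± 0.09, adjusted p = 3.58e-08). On this probe the step from SNM to the final stage was 0.35 ± 0.09 in control cells, adjusted p = 0.00306 and under 1.5-fold, and -0.10 ± 0.09 in knockdown cells. Its knockdown change was not called at any stage: it was -0.07 ± 0.09 in ES cells, 0.24 ± 0.09 at the SNM stage and -0.20 ± 0.09 at the final stage. The dimmer probe of the same symbol was detected on 16 of 18 arrays, and on 1 of 3 in knockdown SNM. It also fell from ES to SNM, with -0.78 in control and -1.53 in knockdown cells. Between the cell types it went the other way, with a called change of -0.69 ± 0.27 at the SNM stage, adjusted p = 0.0441. In knockdown cells it had a called rise of 0.74 ± 0.27 from SNM to the final stage, adjusted p = 0.0281. Both of these calls rest on the same knockdown SNM level, which is near background. No sequence of these probes was used here, so which transcripts each reads is not known, and the Tet2 values beyond the fall from ES to SNM differ between the probes.

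Mbd3, on chromosome 10, varied least of the detected genes. Its log2 signals were 8.95, 8.77 and 8.81 in control and 8.86, 8.77 and 8.90 in knockdown ES cells, 9.19, 9.14 and 9.18 against 8.98, 8.86 and 8.81 at the SNM stage, and 8.22, 8.36 and 8.40 against 8.13, 8.14 and 8.07 at the final stage. Knockdown arrays were below control arrays at both later stages without overlap, by -0.29 ± 0.06, adjusted p = 0.00147, and -0.21 ± 0.06, adjusted p = 0.00979, and both changes were under 1.5-fold. The fall from SNM to the final stage was called in both cell types, at -0.84 ± 0.06 in control and -0.77 ± 0.06 in knockdown cells. Of 11 other NuRD genes 9 had a probe. In knockdown against control 0 of 9 were called in ES cells, 1 was higher and 1 lower at the SNM stage, and 2 were lower at the final stage. Over all probes tested 1.68%, 19.9% and 27.4% were called at these stages, so the counts do not set the NuRD genes apart. Chd3, a remodelling ATPase of the complex, was the one higher at the SNM stage (0.60 ± 0.15) and was lower at the final stage (-1.0015 ± 0.15), and Mta3 was lower at the SNM stage (-0.81 ± 0.08) and Rbbp7 at the final stage (-0.61 ± 0.10).

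A wider list of 32 genes that place, remove or read DNA methylation or supply its substrates gave 25 to 27 tested genes a comparison. In knockdown against control 0 of 25 were called in ES cells, against 1.68% of all probes tested. Among SNM 2 were higher and 5 lower of 27, with a median of -0.18 against -0.04 for all probes. At the final stage 4 were higher and 3 lower of 27. Over all probes tested 19.9% and 27.4% were called at these stages, so the counts do not set the list apart. Gadd45b, a stress gene linked to DNA demethylation, was higher at both stages, by 1.05 ± 0.07 and 1.09 ± 0.07, and Gadd45g was higher at the final stage by 1.08 ± 0.06. Ahcy, the hydrolase that clears the S-adenosylhomocysteine left by methyltransferases, was lower at both, by -1.04 ± 0.06 and -0.67 ± 0.06. Apex1, a base excision repair nuclease, was lower at the SNM stage by -0.85 ± 0.10, and Dppa3, which guards methylation in the early embryo and can keep Uhrf1 from chromatin, was lower by -0.69 ± 0.12 there and by -1.16 ± 0.12 at the final stage.

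Through differentiation the same list moved both ways. From ES to SNM 7 were higher and 8 lower of 27 in control cells, and 5 were higher and 13 lower of 27 in knockdown cells. Of all probes tested 49.1% were called in control and 57.3% in knockdown cells in this step. Cxxc4, whose protein binds unmethylated CpG and lowers Tet2, was not detected in ES cells and was at least 6.517-fold higher at the SNM stage in control and at least 9.545-fold higher in knockdown cells, against the lowest signal detected on each ES array. Zfp57, which with Trim28 protects methylation of imprinted regions, fell by 2.07 in control and by 2.50 in knockdown cells. Zbtb33, a zinc finger protein that binds methylated DNA, rose by 1.4965 and 1.35. From SNM to the final stage 3 were higher and 7 lower in control cells and 5 higher and 7 lower in knockdown cells. Of all probes tested 29.4% and 28.6% were called in this step. Among the list genes called were Ahcy, which fell by 1.32 and 0.95, and Gadd45a, which rose by 0.87 and 1.61.

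Germline genes with promoters known to be silenced by methylation were also followed. Of 18 genes, 12 were tested from ES to SNM in control cells, with 10 lower and 1 higher and a median of -2.52, and 11 in knockdown cells, with 10 lower and 1 higher and a median of -2.35. Of the 18, 11 were detected on all control ES arrays and 4 on all control SNM arrays, and in knockdown cells 10 and 5. Genes that passed the test filter only through ES cells had little room but to fall. The counts and medians are therefore set in part by the filter and by background. Dazl, an RNA-binding protein of germ cells, fell from 10.20 to 4.8019 in control and from 10.47 to 4.62 in knockdown cells, and Taf7l from 8.86 to 4.67 and from 8.81 to 4.63. At the SNM stage Dazl was detected on 2 of 3 control arrays and Taf7l on 1 of 3 arrays of each cell type, so these SNM levels are at background and the sizes of the falls are uncertain. Dazl was not detected on the knockdown SNM arrays, so its fall there was at least 55.48-fold. Tex19.1 fell by 2.76 in control and by 5.35 in knockdown cells. Knockdown against control 0 of 11 were called in ES cells, 2 were higher and 1 lower of 5 tested at the SNM stage, and 2 were higher and 4 lower of 7 at the final stage. Over all probes tested 1.68%, 19.9% and 27.4% were called at these stages. In the step to the final stage 4 of 7 tested were higher and 1 lower in each cell type, with medians of 0.65 in control and 0.89 in knockdown cells, where the pluripotency genes had 0 higher of 9 with 2 lower in control and 7 lower in knockdown cells. Over all probes 29.4% were called in control and 28.6% in knockdown cells. In each cell type 7 germline genes were detected on all arrays at the final stage, against 4 in control and 5 in knockdown SNM. Some of them thus passed the filter only through the later stage. The level of RNA alone does not show their methylation.

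Across the 6 condition means, the closest profiles among 16255 symbols were taken for each gene, as a description with 6 points that share their arrays. Dnmt1 was most like Tk1, Ccna2 and Kif4 (r = 0.999 each), genes of nucleotide salvage and of mitosis, and Uhrf1 like a predicted locus, LOC383897, and the histone genes Hist1h2ak and Hist1h2ah. Dnmt3b was most like Rab25 (r = 0.997), Dnmt3l like a predicted locus, LOC100047173, and Niban, Tet1 like Bcas2, Coil and Nupl1, Tet2 like Actn1, LOC386336 and Traf3ip2, and Mbd3 like Kpnb1, Rbl1 and Galk1. Among the genes themselves Dnmt1 and Uhrf1 were closest (r = 0.995), followed by Dnmt3l and Tet2 (r = 0.991) and Dnmt3b and Mbd3 (r = 0.945). For Tet2 this is the brighter probe. The dimmer one went against Dnmt3l between the cell types at the SNM stage, with -0.69 ± 0.27 for knockdown against control. At the final stage the dimmer probe gave 0.33 ± 0.27, limma adjusted p = 0.315, which was not called. Mbd3 and Tet2 were the least alike (r = 0.18).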

How the data were processed

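Gene expression was read on Illumina MouseWG-6 v2 arrays, 18 in all, with 3 arrays a condition and groups taken from the labels. The authors pooled the RNA of each condition and ran the arrays in triplicate. They deposited the average bead intensity of each probe without normalisation, with a detection p-value against the negative-control beads of the array. The authors' annotation table supplied symbols and chromosomes. It gave no chromosome for the Tet1 and Tet2 probes, and those named for these genes are of their RefSeq promoter windows. The 72 columns of values in the table, named by chip and position, could not be paired with the samples and were not used, so chip could not be tested as a batch. RNA-seq of the study is not analysed here.

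Intensities were background-corrected with the detection p-values, offset by 16, quantile-normalised and log2-transformed (neqc, limma 3.58.1, R 4.3.3). A single limma model over the 6 conditions gave every comparison, two-sided, with Benjamini-Hochberg adjustment over all probes tested. Probes were tested where detected (p under 0.05) on all 3 arrays of a condition compared, and called at adjusted p under 0.05 and at least 1.5-fold. No 2 arrays held identical values. Exact permutation of 3 against 3 arrays cannot go below p = 0.1 and was not used, and the number of arrays limits the precision. The fit was tested on simulated data.

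The genes and lists were chosen with earlier results of these data known. From a list at most 4 called genes a comparison, by largest change, were named, with their values in other comparisons beside them where useful; for each gene the symbols most correlated over the condition means were named, at most 3. Some genes that these rules select are not reported here. Tet3, Dppa5a, Cdk1 and Map2 were read under other symbols of the array, matched by Entrez gene. Arrays of the same number were taken as paired where all 3 correlations of their deviations from the condition means were over 0.1. This held for knockdown against control at the SNM stage (0.49, 0.11 and 0.49) and for knockdown neurons against SNM (0.52, 0.14 and 0.51). Promoter windows of 250 bases were read from RefSeq sequence of GRCm38.p6 for 8 of the 9 genes, by symbol. Mbd2 was not read. Alternatives covered background correction, normalisation, offset, detection filter, fold threshold, arrays in the fit, an unpaired t-test as in the methods, array number as a block, the mean over probes, and leaving out each array.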

Additional observations from a re-analysis of the deposited data

Results flagged for a closer look

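The knockdown effect on 3 genes differed between stages by the test of the difference itself. For Dnmt3b the effect at the final neuron stage was lower than at the SNM stage by a log2 difference of -0.87 (95% interval -1.18 to -0.56). For Dnmt3l it was higher at the SNM stage than in ES cells by 0.72 (0.48 to 0.97) and lower at the final stage than at the SNM stage by -1.51 (-1.76 to -1.27). For Uhrf1 it was lower at the SNM stage than in ES cells by -0.76 (-0.96 to -0.56). The Hprt1 knockdown itself was shallower at the SNM stage, and markers of muscle and oligodendrocytes differed between the cell types at the final stage. Their part in these differences was not tested.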

How the results depend on the processing

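Of 728 values of single genes under other settings, 688 kept direction and side of the threshold, 23 lost and 7 gained a call, and 10 changed sign. Except for the Tet2 probe choice, the sign changes were of values under 0.15 in size. With scaling to the 75th percentile Mbd3 from ES to SNM in knockdown cells became -0.0639 and the Dnmt1 change of effect to the final stage 0.0365. Without normalisation between arrays the knockdown change in ES cells became 0.0290 for Dnmt3b and 0.0153 for Tet2. With the mean over probes Dnmt3b in ES cells became 0.0250, and Tet2 became -0.2239 at the SNM stage, 0.0660 at the final stage, 0.3211 from SNM to the final stage in knockdown cells, and -0.2226 and 0.2899 for the changes of effect. The same setting removed the calls of Dnmt3b from ES to SNM in knockdown cells (0.53) and of the changes of effect of Uhrf1 (-0.58) and Dnmt3b (-0.57). Scaling to the 75th percentile removed those of Dnmt3b from ES to SNM in knockdown cells (0.52), Dnmt3l from SNM to the final stage in control cells (0.58) and its first change of effect (0.56). Leaving out single arrays moved the ES knockdown change of Dnmt3b from -0.1001 to 0.0248, Tet1 from -0.0414 to 0.3507, Tet2 from -0.1232 to 0.0035 and Mbd3 from -0.0357 to 0.0539, and Mbd3 from ES to SNM in knockdown cells from -0.0102 to 0.0764.

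Counts of the 5 tested genes moved as follows. At least 2-fold left 0 at the SNM stage and 1 at the final stage for knockdown against control, 3 from SNM to the final stage in control cells, 2 and 3 for the steps in knockdown cells, and 0 and 1 for the changes of effect. The first change of effect had 1 with scaling to the 75th percentile, and both had 1 with the mean over probes. From ES to SNM in control cells the count was 2 without normalisation between arrays and 3 with both Tet genes counted, an alternative added after seeing the data. Leaving out single arrays gave 2 to 3 at the SNM stage, with Dnmt1 the addition.

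With the array number as a replicate block the counts of the 5 genes did not change. Only Tet1 gained calls: at the SNM stage (adjusted p = 0.00377), from SNM to the final stage in control cells (0.00486) and for the first change of effect (0.0172). The numbers met the pairing rule in the first of these comparisons only.

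Over all probes, knockdown against control in ES cells called 310, against 57 with quantile normalisation alone, 56 with scaling to the 75th percentile, 81 with an offset of 50, 25 at 2-fold and 78 by the t-test after adjustment. At the SNM stage 4127 became 2326, 2452, 2561 and 1267 under the first 4 of these, and at the final stage 5732 became 3690 and 3760 under the first 2 and 2636 at 2-fold. Without normalisation between arrays the median of all probes from ES to SNM shifted by 0.28 in control and 0.23 in knockdown cells, and the share of called probes that were higher was 55.6% in place of 30.6% for the ES comparison, 68.4% in place of 48.4% for control and 60.0% in place of 46.1% for knockdown cells from ES to SNM. Dim second probes of Dnmt3b, Uhrf1 and Tet2 lie close to background and limit what they show.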
